A study of Rattus norvegicus with 18 samples.

Results

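The genes described here are 9 feedback inhibitors of the mitogen-activated protein (MAP) kinase routes, namely the dual-specificity phosphatases Dusp1, Dusp4, Dusp5, Dusp6 and Dusp14, the sprouty genes Spry2 and Spry4, and the sprouty-related genes Spred1 and Spred2. They were taken by symbol from the 38445 rat genes in the count files, and all 9 were found. Gene expression was measured by RNA-Seq in the dorsal hippocampus of 18 adult male Sprague-Dawley rats, 6 in each of 3 groups, and each library came from a different animal. The rats were 75 to 85 days old when purchased, and were given Lieber-DeCarli liquid diet. Control rats received it without ethanol for 16 days. In the other groups the ethanol content was first raised over 7 days, after which ethanol rats stayed on 9% (v/v) ethanol diet for 16 days with no withdrawal (0 h), and withdrawal rats had 15 days of the 9% diet followed by 24 h without ethanol.

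MAP kinases carry signals from growth factor receptors, synaptic activity and stress to the nucleus. In the extracellular signal-regulated kinase (ERK) route, a receptor tyrosine kinase activates Ras, Ras activates Raf, Raf activates MEK and MEK phosphorylates ERK, while JNK and p38 are the MAP kinases best known from stress. ERK activity induces the genes of its own inhibitors, so that sprouty and Spred proteins restrain the route near the receptor, Ras and Raf, and dual-specificity phosphatases remove phosphate from the MAP kinases themselves. In hippocampal neurons ERK signaling is known for its part in synaptic plasticity and in the induction of activity-dependent genes.

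The promoter sequences that follow are shown because they hold the motifs found by a letter search in the members that the results turn on. RefSeq windows of build GRCr8 were matched for 8 of the 9 members (11 windows, since Dusp14 and Spry2 have several starts), and no window was matched for Dusp4. Each line gives the 250 bases before a gene's start, 5′ to 3′ on the gene's strand, with matched motifs in capitals. The motifs were searched on both strands in these bases and in the 50 that follow the start, and shares of all windows refer to that same stretch.
Dusp1 (GRCr8 chr10:17184603-17184852, + strand): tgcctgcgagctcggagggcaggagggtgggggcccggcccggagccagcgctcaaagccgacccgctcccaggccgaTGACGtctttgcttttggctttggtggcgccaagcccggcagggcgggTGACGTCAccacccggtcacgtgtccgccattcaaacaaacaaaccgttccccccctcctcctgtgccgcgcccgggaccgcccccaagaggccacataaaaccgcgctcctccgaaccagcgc
Dusp5 (GRCr8 chr1:262543524-262543773, + strand): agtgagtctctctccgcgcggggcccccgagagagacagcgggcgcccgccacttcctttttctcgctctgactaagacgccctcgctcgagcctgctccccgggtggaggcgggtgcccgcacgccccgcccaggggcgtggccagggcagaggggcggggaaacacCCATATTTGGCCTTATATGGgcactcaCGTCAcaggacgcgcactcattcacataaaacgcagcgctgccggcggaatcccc
Spry2 (GRCr8 chr15:89111927-89112176, - strand): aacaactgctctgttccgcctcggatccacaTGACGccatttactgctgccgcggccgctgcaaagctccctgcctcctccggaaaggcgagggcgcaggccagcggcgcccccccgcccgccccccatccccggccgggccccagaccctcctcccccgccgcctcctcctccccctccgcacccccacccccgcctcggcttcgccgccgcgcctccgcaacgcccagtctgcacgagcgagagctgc
Spry4 (GRCr8 chr18:30702547-30702796, - strand): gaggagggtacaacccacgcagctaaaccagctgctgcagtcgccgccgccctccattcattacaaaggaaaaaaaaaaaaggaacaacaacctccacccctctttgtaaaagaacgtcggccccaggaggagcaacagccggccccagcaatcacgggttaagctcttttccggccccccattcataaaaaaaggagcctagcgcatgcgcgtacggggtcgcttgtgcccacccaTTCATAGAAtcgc
Spred2 (GRCr8 chr14:98350327-98350576, + strand): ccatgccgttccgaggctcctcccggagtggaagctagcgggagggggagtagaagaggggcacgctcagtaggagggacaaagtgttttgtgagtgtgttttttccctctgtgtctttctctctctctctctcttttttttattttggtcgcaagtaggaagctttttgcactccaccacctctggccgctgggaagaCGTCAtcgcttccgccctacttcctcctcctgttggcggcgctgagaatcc

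The Dusp1 window holds the whole cAMP response element (CRE) TGACGTCA, 124 bases before the start, and a further copy of its core TGACG, 172 bases before the start. The whole CRE was in 1.83% of the 33469 promoter windows of the same length and in no other member. The core, which lies within the whole element on both strands, was in 21.2% of all windows and in 5 of the 11 member windows (Dusp1, Dusp5, Dusp14, Spry2 and Spred2). The Dusp5 window holds a pair of adjacent CArG boxes, the element that serum response factor binds, 82 and 72 bases before the start. Any CArG box was in 1.64% of all windows, and adjacent pairs were not counted. The gamma-activated site letters TTCNNNGAA, in 8.87% of all windows, were 13 bases before the start of Spry4 and in the second Spry2 window. The AP-1 letters TGANTCA (7.33% of all windows) were in the third Dusp14 window, and CCGGAAG (ETS, 8.75%) and GCGGGGGCG (EGR, 2.73%) were in no member window. No searched motif was in the Spred1 and Dusp6 windows. These are matches of letters and no binding was measured at them.

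Reads assigned to genes numbered 30873228 to 42679748 per library (median 36302755), and levels are given as CPM, that is read counts scaled to a common library size, after TMM normalization. Every member passed the filter of more than 0.5 CPM in at least 1 rat, which 17853 genes passed, and the members' raw counts ran from 158 to 6215 per rat. Differences are log2 fold changes with their standard errors (SE) from a limma-voom model of all 3 groups with 3 surrogate variables, which are estimated from the data to absorb variation that the groups do not explain. The q value is the p-value adjusted over all 17853 genes, and a gene was called where q was under 0.1. An exact two-sided permutation test of the log2 CPM values, without surrogate variables and unadjusted, is given beside it, and its smallest possible p for 6 against 6 rats is 0.00216.

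Before the results, some libraries and the tissue need description. All 9 neuron markers were measured in every library, among them Prox1 of dentate granule cells and Neurod6 of pyramidal cells, and their summed level was 5913 to 6874 CPM in control, 4838 to 7521 CPM in ethanol and 4923 to 7033 CPM in withdrawal rats. Choroid plexus markers, from the tissue of the neighbouring ventricle, summed to 27.5 and 28.2 CPM in withdrawal rats 4 and 5 and to 1064 CPM or more in the other 16 rats. Thalamus markers summed to 1430 CPM in ethanol rat 1 and to 193 to 805 CPM elsewhere. Libraries carried index sequences of 3 sets, of which the first tagged all control rats, the second all ethanol rats and withdrawal rats 1 and 2, and the third for withdrawal rats 3 to 6. A difference from control rats therefore cannot be told apart from a difference between index sets. In whole tissue, fewer cells of a type and less RNA per cell cannot be told apart either.

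Levels between genes were compared in control rats per kilobase of counted exon, as CPM per kb. Dusp6, the cytoplasmic phosphatase selective for ERK, was at 20.6 ± 4.44 CPM per kb (SD, n = 6) and Spry2 at 19.6 ± 1.05. Spred2 followed at 17.2 ± 0.991, Spred1 at 16.2 ± 1.39 and Dusp1 at 14.3 ± 1.89 CPM per kb. From Dusp6 to Dusp1, neighbours in this order except Spry2 and Spred2 differed by less than the sum of their SDs. Dusp4 lay lower, at 8.55 ± 1.23 CPM per kb, and Dusp5 (4.14 ± 1.12) and Dusp14 (4.01 ± 0.291) did not differ beyond their spread. Spry4 was lowest at 2.87 ± 0.159 CPM per kb. These levels rest on the exon lengths in the files, which for Dusp4 and Spred2 were only 1188 and 1203 bases, against 1528 to 7950 bases in the other members.

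The comparison of withdrawal with control rats covers the earlier ethanol diet and its removal together. Spry2, Spred1 and Spred2, all inhibitors that act above MEK, rose in withdrawal, and no member fell. Thus 3 of the 9 members were called higher, where 2.85% of all genes tested were called higher, and the members' median log2 fold change was 0.31 against 0.00030 over all genes. The members were chosen with earlier results of these data known. Shares of all genes beside the members, here and below, are therefore a description and no test. Without withdrawal rat 1 the members' median was 0.18, and without any other single rat it was 0.29 to 0.34. All 9 modelled log2 fold changes were above 0, as were 50.1% of all genes, although that of Dusp6 was 0.0013 and turned negative under other settings. Lower calls made up 2.55% of all genes. At an unadjusted p under 0.05 there were 5 of the 9 (19.7% of all genes), the 3 called genes with Spry4 and Dusp4. On the levels themselves, 4 of the 9 had an exact permutation p under 0.05 with a higher level in withdrawal (6.44% of all genes).

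Spry2, on chromosome 15 (Rnor_6.0 chr15:90172769-90177823), encodes sprouty 2, which interferes with signaling from the receptor to Ras and Raf. Its lowest, median and highest levels were 44.9, 48.7 and 52.3 CPM in control rats, 35.6, 46.0 and 64.7 CPM in ethanol rats, and 47.4, 63.1 and 96.8 CPM in withdrawal rats. Of the withdrawal rats, 5 of 6 lay above all control rats, and rat 5 lay within the control range. The log2 fold change of Spry2 over control was 0.45 (SE 0.11, q = 0.0491 by limma-voom, exact permutation p = 0.0173), and group means were 67.5 ± 18.8 against 48.5 ± 2.603 CPM (SD, n = 6). The gene lies within the span of Mycbp2 on the same strand, with which it shares no exon bases.

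Spred1 (Rnor_6.0 chr3:108795337-108861650) encodes a protein that brings neurofibromin to Ras at the membrane. It was at 119, 125 and 148 CPM (lowest, median and highest) in control rats, 108, 130 and 147 CPM in ethanol rats, and 138, 153 and 181 CPM in withdrawal rats. Withdrawal rats 1, 3, 4 and 5 lay above all control rats, and rats 2 and 6 lay below the highest control rat. The log2 fold change was 0.23 (SE 0.061, q = 0.0622 by limma-voom, exact permutation p = 0.00866).

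Spred2 (Rnor_6.0 chr14:104268362-104290206), the paralog of Spred1, was at 19.4, 20.5 and 22.8 CPM in control rats, 15.1, 18.8 and 25.02 CPM in ethanol rats, and 20.4, 24.7 and 33.3 CPM in withdrawal rats. Again 5 of the 6 withdrawal rats lay above all control rats, and rat 5 was the exception. The log2 fold change was 0.30 (SE 0.076, q = 0.0476 by limma-voom, exact permutation p = 0.013).

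Spry4 (Rnor_6.0 chr18:32593370-32609890), the other sprouty gene measured here as a member, was the only member whose withdrawal and control levels did not overlap. It was at 12.7, 14.0 and 14.9 CPM in control rats and at 16.0, 16.8 and 20.3 CPM in withdrawal rats, and 0.521% of all genes were separated in that direction. Ethanol rats ran from 10.6 to 18.5 CPM, across both other groups. The exact permutation p was 0.00216, the smallest possible, while the model gave a log2 fold change of 0.31 (SE 0.0998) with q = 0.104 (limma-voom), just short of the threshold. With normalization factors computed before the filter only, a setting added after the data were seen, q for Spry4 was 0.0995. By limma-voom it was 0.24 without surrogate variables, 0.134 with 2 of them and 0.199 without withdrawal rat 1. Spry4 was called in 5 of 18 models that left out 1 rat and in 7 of 18 other settings.

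**Figure D1:**
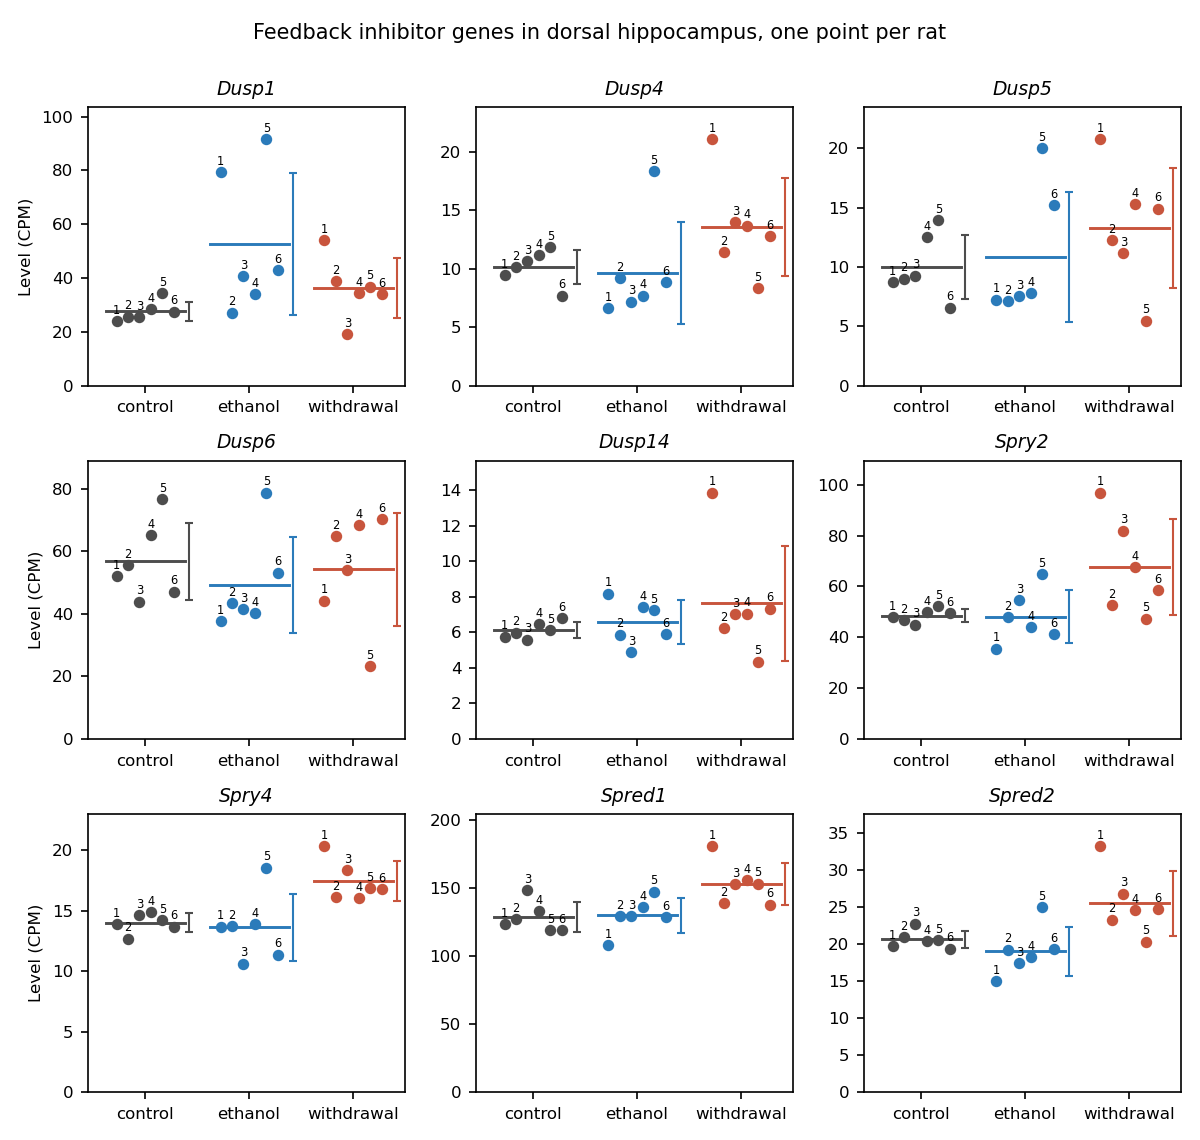
TMM-normalized level (CPM, from 0) of each feedback inhibitor in every rat, with 6 control, 6 ethanol and 6 withdrawal rats; numbers mark the rat, lines the group mean and the bars beside them the SD. Spry4 in withdrawal (16.0 to 20.3 CPM) lies wholly above control (12.7 to 14.9 CPM), while Dusp1 is highest in ethanol rats 5 and 1 (91.6 and 79.3 CPM).

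The phosphatases were not called in withdrawal. Dusp4, a nuclear phosphatase of ERK and JNK (Rnor_6.0 chr16:61080767-61090973), was at 7.70, 10.4 and 11.9 CPM in control rats and at 8.36, 13.2 and 21.1 CPM in withdrawal rats, with 4 of 6 withdrawal rats above all controls. Its log2 fold change was 0.39 (SE 0.15, q = 0.173 by limma-voom, exact permutation p = 0.0866). Dusp4 was called in 4 of 18 other settings, among them DESeq2 with 3 surrogate variables (q = 0.073), and in 1 of 18 models that left out 1 rat. Dusp5, a nuclear phosphatase selective for ERK (Rnor_6.0 chr1:274245184-274258595), ran from 6.57 to 13.95 CPM in control rats, a range that lay inside that of the withdrawal rats (5.48 to 20.8 CPM). Its log2 fold change of 0.39 had an SE of 0.20 (q = 0.288 by limma-voom). Without withdrawal rat 1 the log2 fold changes were 0.23 for Dusp4 and 0.18 for Dusp5.

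Dusp14, a small phosphatase that lacks the kinase-binding domain of the classical family (Rnor_6.0 chr10:71363688-71383602), reached at most 6.79 CPM in control rats and ran from 4.35 to 13.9 CPM in withdrawal rats, with 4 of 6 above all controls. Withdrawal rat 1 stood at 13.9 CPM and the next highest withdrawal rat at 7.34 CPM. The log2 fold change was 0.28 (SE 0.18, q = 0.412 by limma-voom). Without withdrawal rat 1 the mean level was 6.40 ± 1.22 CPM (SD, n = 5) against 6.12 ± 0.445 in control rats.

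Dusp6 (Rnor_6.0 chr7:41475163-41479393) had a log2 fold change of 0.0013 in the model (SE 0.065, q = 0.996 by limma-voom), and its difference of mean log2 levels was -0.13 (exact permutation p = 0.716). Control rats ran from 43.9 to 76.7 CPM and withdrawal rats from 23.3 to 70.3 CPM, and rat 5 was the lowest of all 18. Dusp1 (Rnor_6.0 chr10:16970642-16973425), the nuclear phosphatase of p38, JNK and ERK that is itself an early response gene and is induced by glucocorticoids, ran from 19.03 to 54.0 CPM in withdrawal rats against 24.1 to 34.3 CPM in control rats. Its log2 fold change was 0.31 (SE 0.28, q = 0.572 by limma-voom), and 0.11 without withdrawal rat 1.

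Within the withdrawal group, rat 1 had the highest level in 8 of the 9 members and rat 5 the lowest in 6 of the 9. Rat 5 also had the lowest summed neuron markers of its group (4923 CPM), with the lowest levels of all 18 rats in 5 of the 9 markers (Camk2a, Slc17a7, Syt1, Prox1 and Neurod6) and the highest in Gad1 (413 CPM) and Gad2 (161 CPM) of inhibitory neurons. Rat 1 had the highest summed level of 19 early genes of all rats (1399 CPM). By index set, the log2 difference of mean levels from control in withdrawal rats 1 and 2 (n = 2) and in rats 3 to 6 (n = 4) was 0.56 and 0.37 for Spry2, 0.37 and 0.28 for Spry4, 0.31 and 0.22 for Spred1, and 0.43 and 0.22 for Spred2. Both sets of withdrawal rats thus had higher means of these 4 genes than control rats. In the set of 2, rat 1 was higher in each, at 96.8, 20.3, 181 and 33.3 CPM in the same order. Rat 2 was at 52.6, 16.1, 139 and 23.3 CPM, where the highest control levels were 52.3, 14.9, 148 and 22.8 CPM. Neither set tagged a control rat, so these values do not separate group from index set.

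The calls depended on the model and on single rats. Without surrogate variables none of the 9 was called by limma-voom or by edgeR (lowest q 0.214 and 0.185, both Spred1), although the log2 fold changes of Spry2, Spred1 and Spred2 were 0.43, 0.25 and 0.28. Leaving out withdrawal rat 1 left Spred2 as the only call (q = 0.085 by limma-voom), leaving out withdrawal rat 6 left none, and leaving out ethanol rat 5 gave 5, adding Dusp4 and Spry4. Over all genes the calls went from 965 to 555, 23 and 1104 in these 3 models and to 41 without surrogate variables (limma-voom). Without withdrawal rat 6 the log2 fold changes were 0.52 for Spry2, 0.24 for Spred1 and 0.33 for Spred2, each above the value with all rats, and without withdrawal rat 1 they were 0.33, 0.18 and 0.225, each below it. Spry2 was also not called without control rat 3 (log2 fold change 0.41, q = 0.111 by limma-voom), nor Spred1 without control rats 1, 2, 5 or 6 (0.21 to 0.22, q 0.111 to 0.120), whereas the 4 permutation results held without any single rat.

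**Figure D2:**
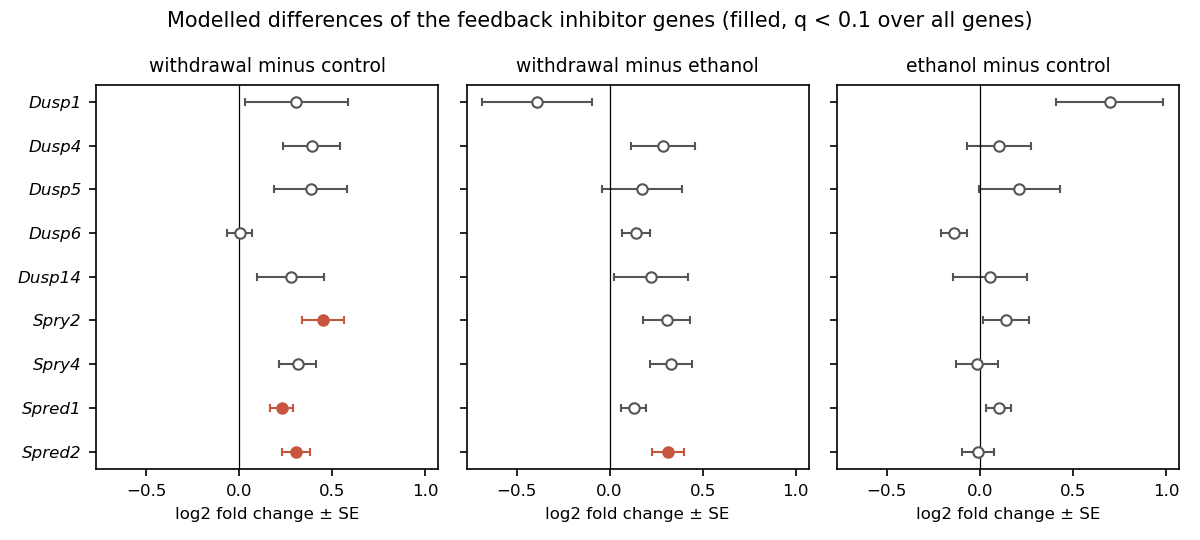
Log2 fold change (points) and SE (bars) of each member by limma-voom with 3 surrogate variables, with n = 6 rats per group; filled points have q under 0.1 over all 17853 genes. Spry2, Spred1 and Spred2 are filled for withdrawal against control, Spred2 alone for withdrawal against ethanol, and none for ethanol against control.

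Withdrawal was next compared with continued ethanol. Spred2 rose in withdrawal relative to ethanol rats, with a log2 fold change of 0.31 (SE 0.085, q = 0.0872 by limma-voom, exact permutation p = 0.0152), and the other 8 members were not called. Thus 1 of the 9 members was called higher, against 1.23% of all genes called higher. The mean of Spred2 was 25.5 ± 4.35 CPM in withdrawal and 19.1 ± 3.31 CPM in ethanol rats (SD, n = 6), and 2 withdrawal rats lay above all ethanol rats.

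On the levels themselves, all 4 Spry and Spred members had an exact permutation p under 0.05, with higher withdrawal levels (7.18% of all genes). The p was 0.0476 for Spry2, 0.013 for Spry4, 0.00866 for Spred1 and 0.0152 for Spred2. For Spry2 p was above 0.05 when any of 8 single rats was left out (up to 0.0952). In the model the log2 fold changes of Spry2, Spry4 and Spred1 were 0.31 (SE 0.13, q = 0.231), 0.33 (SE 0.11, q = 0.151) and 0.13 (SE 0.069, q = 0.359) in that order (limma-voom). Ethanol rat 5 had the highest level of its group in 8 of the 9 members and overlapped the withdrawal rats in each of these 4 genes. Leaving it out gave 4 calls (Dusp4, Spry2, Spry4 and Spred2), and leaving out ethanol rats 1 and 5, a choice made after the data were seen, gave 5, while the calls over all genes went from 486 to 1800 and 1786.

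Dusp1 alone was modelled lower in withdrawal than in ethanol, at -0.39 on the log2 scale with SE 0.29 and q = 0.533 (limma-voom), and without ethanol rat 5 that value was 0.014. Dusp4, Dusp5, Dusp6 and Dusp14 had log2 fold changes between 0.14 and 0.29, all with q above 0.3. The Spred2 call ended in 9 of the 18 models that left out 1 rat, with q up to 0.33 and log2 fold changes of 0.23 to 0.34 in those 9, and in 3 of them (without ethanol rat 2 or 3 or withdrawal rat 6) no gene at all was called. Within the index set shared by the ethanol rats and withdrawal rats 1 and 2 no gene at all was called (0 of 17519 by limma-voom), with log2 fold changes of 0.55 for Spred2, 0.60 for Spry2, 0.41 for Spry4 and 0.30 for Spred1.

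Ethanol rats were compared with control rats to see what differed under continued ethanol diet (7 days of introduction and 16 days at 9%). None of the 9 members was called by limma-voom, edgeR or DESeq2 with 3 surrogate variables, and 0.493% of all genes were called by limma-voom. At an unadjusted p under 0.05, 1 of the 9 was found, Dusp1, where 12.5% of all genes had such a p.

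Dusp1 was at 24.1, 26.6 and 34.3 CPM (lowest, median and highest) in control rats and at 27.1, 41.8 and 91.6 CPM in ethanol rats. Ethanol rats 1 and 5 reached 79.3 and 91.6 CPM, rats 3 and 6 were at 40.7 and 42.9 CPM, also above all control rats, and rats 2 and 4 lay within the control range. The exact permutation p was 0.0152 (7.48% of all genes had a p under 0.05 with higher levels in ethanol), and it stayed under 0.05 without any single rat. In the model the log2 fold change was 0.70 (SE 0.29, q = 0.330 by limma-voom), and without ethanol rat 5 it was 0.29 (q = 0.637). Group SDs were 26.3 CPM in ethanol and 3.64 CPM in control rats.

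The log2 fold changes of the other 8 members ran from Dusp6 at -0.14 (SE 0.070, q = 0.431 by limma-voom) to Dusp5 at 0.21 (SE 0.22, q = 0.739). In the levels themselves, 5 of the 6 ethanol rats lay below all control rats for Spred2 (difference of mean log2 levels -0.13, exact permutation p = 0.255, against -0.0096 in the model). For Dusp6 4 of 6 did (-0.23, exact permutation p = 0.271), and ethanol rat 5 lay above all control rats in both genes. The SD as a percentage of the mean was larger in ethanol and in withdrawal than in control rats for all 9 members, as it was for 57.8% of all genes, for instance 21.7% and 27.9% against 5.36% for Spry2. Without ethanol rats 1 and 5, which held most extremes of their group so that a smaller SD follows from leaving them out, the SD was below that of control rats in 4 members (Dusp4, Dusp6, Spred1 and Spred2) and above it in the other 5. Ethanol rat 1 had the lowest level of its group in 5 of the 9 members, together with the lowest summed neuron markers of all rats (4838 CPM) and the highest thalamus markers.

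Across all 3 groups at once, the moderated F test called 2 of the 9 members, Spred2 (q = 0.058) and Spry2 (q = 0.0822 by limma-voom), where 5.6% of all genes were called. Spred1 (q = 0.103) and Spry4 (q = 0.121) lay just outside.

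The members were then compared with each other among rats of the same group, with group means removed. Of the 36 pairs, 35 had a Pearson r above 0 (median r 0.499), and 8 had a p adjusted over the 36 pairs under 0.05 (100000 permutations within groups). Without withdrawal rat 1, 7 pairs had such a p, of which 6 were among the 8. The closest pair was Dusp4 and Spred2, with r = 0.931 and Spearman's rho = 0.866 over 18 rats (permutation p 2e-05 and 4e-05, adjusted p 0.00072 and 0.00144). Without the 2 rats farthest from the median in Dusp4, r was 0.838. Dusp4 and Dusp5 had r = 0.860 and rho = 0.783 (permutation p 5e-05 and 0.00039, adjusted p 0.0009 and 0.00702), and 0.799 without the 2 farthest rats. The ERK-selective Dusp5 and Dusp6 had r = 0.795 and rho = 0.701 (permutation p 0.00154 and 0.00307, adjusted p 0.00924 and 0.0368), and 0.582 without the 2 farthest rats.

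Some of these relations rested on a few rats or on one index set. Dusp4 and Spry4 (r = 0.706, rho = 0.560, permutation p 0.0107 and 0.0236, adjusted p 0.0481 and 0.134) fell to r = 0.241 without the 2 farthest rats. Spry2 and Spred2 had r = 0.815 over all rats and rho = 0.536 (permutation p 0.00121 and 0.0522, adjusted p 0.00924 and 0.160), but r was -0.621 in the 6 control rats of the first index set and 0.864 in the 8 rats of the second. In the same sets r was 0.538 and 0.961 for Dusp4 and Spred2, 0.938 and 0.847 for Dusp4 and Dusp5, and 0.851 and 0.668 for Dusp5 and Dusp6. The third set holds 4 rats, too few for a value. Dusp1 (r 0.0412 to 0.438) and Dusp14 (r 0.239 to 0.546) had no adjusted p under 0.05 in their 8 pairs each, and the lowest r of all was that of Dusp6 and Spred1 (-0.0341). Among the 6 control rats alone, Dusp1 had r = 0.830 with Spry2 and 0.790 with Dusp6.

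**Figure D3:**
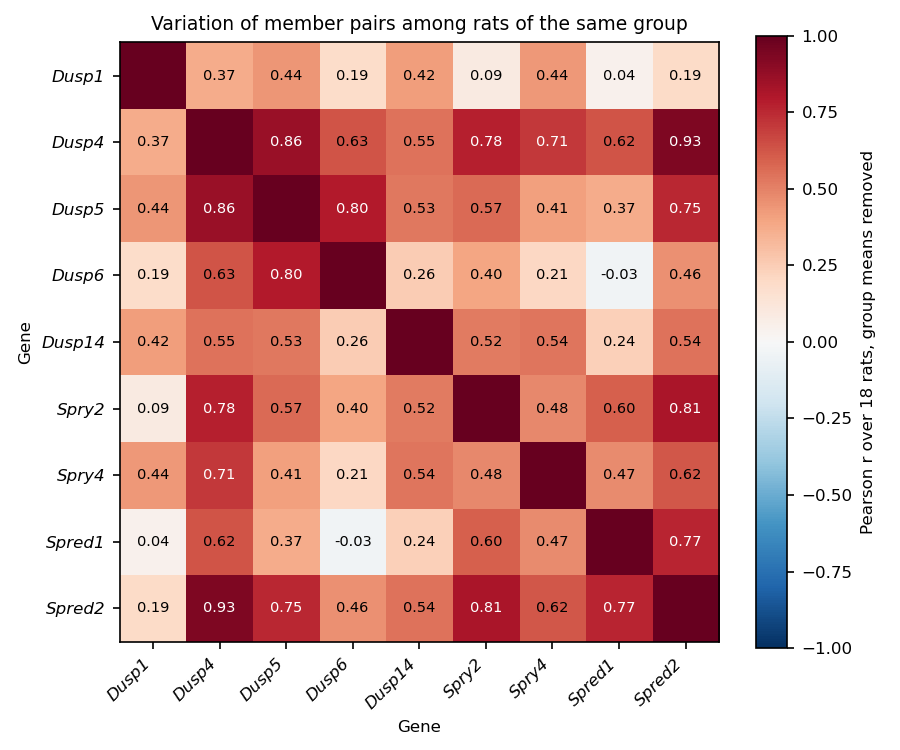
Pearson r of log2 CPM for each pair of members over 18 rats after group means were removed, on a color scale from -1 to 1. Dusp4 with Spred2 is highest (0.931) and Dusp6 with Spred1 lowest (-0.0341).

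The members were also set beside the summed neuron markers, as a description over the 18 rats with group means removed, in which both quantities come from the same libraries. Pearson r on the log2 scale was 0.865 for Dusp6, 0.681 for Dusp5, 0.641 for Dusp4, 0.533 for Spred2 and 0.491 for Spry2, and between -0.0295 and 0.232 for Spred1, Spry4, Dusp1 and Dusp14. The lowest Dusp6 level (23.3 CPM) and the lowest summed neuron markers of the withdrawal group (4923 CPM) were both in rat 5, although single markers went both ways in that rat. The part of cell composition in these levels was not tested.

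The genes most like each member over the 18 rats are given as a description. Here group means were not removed, so differences between groups enter r. Spearman's rho of these pairs ran from 0.668 (Dusp14 with Slc39a14) to 0.963 (Dusp6 with Arpc5). For Spry2 the genes were Bdnf, a neurotrophin whose receptor feeds the ERK route (Pearson r = 0.903), Spred3 (r = 0.902) and Hnrnpll (r = 0.902), with lower rho of 0.775, 0.785 and 0.732. Withdrawal rat 1 was highest in both Spry2 (96.8 CPM) and Bdnf (99.7 CPM). For Spred2 they were Spred3 (r = 0.949), Pfkfb3 (r = 0.945) and Kpna1 (r = 0.941), and for Dusp4 they were Pfkfb3 (r = 0.952), Fmnl1 (r = 0.933) and Pitpnb (r = 0.931). Dusp6 was most like Arpc5, Kiaa1671 and Prickle2 (r 0.965, 0.964 and 0.963), and Dusp5 most like Rbbp7, Mark3 and Akirin1 (r 0.947, 0.926 and 0.920). Spry4 was most like Psmd2, Tsc22d2 and Phb2 (r 0.923, 0.887 and 0.871), Spred1 most like Nop58, Clock and Ier5 (r 0.921, 0.900 and 0.891), and Dusp14 most like Scrt2, Slc39a14 and Crem (r 0.910, 0.882 and 0.869). For Dusp1 the values were lower, with Tmem208, Nfil3 and Sirt6 at r = 0.852, 0.847 and 0.829.

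The rest of the MAP kinase routes was examined in gene lists by role. Among 14 other inhibitors of the Ras and ERK route, 3 rose and 1 fell in withdrawal relative to control (median log2 fold change 0.075). Lrig1, which promotes the degradation of growth factor receptors, rose by 0.39 (SE 0.060, q = 0.0123), from 39.1 ± 2.99 to 52.4 ± 9.06 CPM (SD, n = 6). Spry1 rose by 0.41 (SE 0.12, q = 0.0785) at the low level of 3.76 CPM, Spred3 rose by 0.30 (SE 0.085, q = 0.0767), and Rasal1, a GTPase-activating protein for Ras, fell by 0.34 (SE 0.074, q = 0.0284, all limma-voom). Relative to ethanol, Lrig1 (0.40, q = 0.0317), Spred3 (0.34, q = 0.0935) and Nf1, which encodes neurofibromin (0.18, q = 0.0784), rose in withdrawal, and Rasal1 fell again (log2 fold change -0.40, q = 0.0396). The exact permutation p was 0.00433 to 0.013 for Lrig1, Spred3 and Nf1 but 0.238 for Rasal1. None of the 14 was called between ethanol and control (limma-voom, edgeR and DESeq2, 2 with an unadjusted p under 0.05).

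Of 11 other dual-specificity phosphatases, none was called in withdrawal against control by limma-voom or edgeR (3 with an unadjusted p under 0.05, and 2 called by DESeq2), and none against ethanol by any of the 3 tools (1 with an unadjusted p under 0.05). Dusp26 alone rose in ethanol relative to control, by 0.26 (SE 0.051, q = 0.0688 by limma-voom), while its levels gave an exact permutation p of 0.180.

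Upstream of the members, 6 of 15 receptor tyrosine kinases rose in withdrawal relative to control and none fell. The 4 with the smallest q were Kdr, the endothelial receptor of Vegfa (0.60, SE 0.13, q = 0.0268), Fgfr2 (0.22, SE 0.049, q = 0.0355), Egfr (0.18, SE 0.051, q = 0.0716) and Pdgfrb of mural cells (0.25, SE 0.070, q = 0.0723, all limma-voom). On the levels themselves, the exact permutation p was 0.0216 to 0.0433 for these 4, and 0.485 and 0.346 for the rest of the called receptors. Of 16 ligands 3 rose, namely Vegfa (0.41, SE 0.10, q = 0.0478), Pdgfa (0.15, SE 0.041, q = 0.0729) and Bdnf (0.67, SE 0.20, q = 0.0868), with Bdnf at 99.7 CPM in withdrawal rat 1 and 29.7 to 53.0 CPM in the other withdrawal rats. Relative to ethanol, Erbb2 and Vegfa were the receptor and the ligand that rose (q = 0.078 and 0.062 by limma-voom).

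Few of the kinases and adaptors were called. Among 21 tested genes of the core from adaptors to ERK, Shc2 and Mapk3, which encodes ERK1, fell in withdrawal relative to ethanol by 0.18 and 0.17 (q = 0.0472 and 0.0787, limma-voom). Their exact permutation p was 0.182 for Shc2 and 0.0173 for Mapk3. Of 10 tested genes of the JNK and p38 core, Map2k6, an activator of p38, fell in withdrawal by 0.28 relative to control (q = 0.0259) and by 0.29 relative to ethanol (q = 0.057, limma-voom). Mapk7 and Map2k3 were under the filter.

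Downstream, 2 of 14 ERK effectors rose in withdrawal, the ETS factors Etv4 and Etv5, whose genes are known transcriptional outputs of receptor tyrosine kinase signaling. Etv4 rose by 0.80 relative to control (SE 0.16, q = 0.0226) and by 0.87 relative to ethanol (SE 0.18, q = 0.0395), from 7.99 ± 0.968 and 7.23 ± 2.24 to 14.3 ± 2.49 CPM (SD, n = 6). Etv5 rose by 0.43 (SE 0.088, q = 0.0244) and 0.37 (SE 0.099, q = 0.0782, all limma-voom). Etv4 kept its call against control without surrogate variables (q = 0.0695 by limma-voom and 0.0838 by edgeR), and was not called without withdrawal rat 6 (log2 fold change 0.73, q = 0.126), when 23 genes in all were called. No other gene called against control in these lists was called without surrogate variables, and without withdrawal rat 6 only Lrig1 was (q = 0.0959 by limma-voom).

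**Figure D4:**
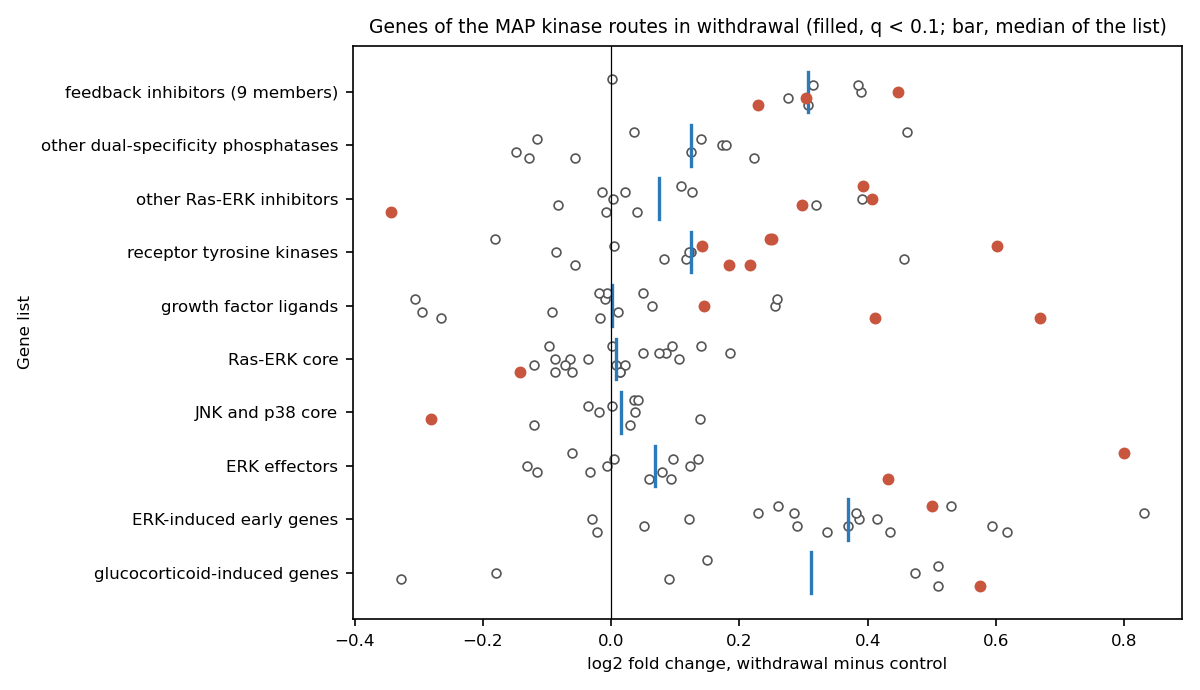
Log2 fold change of withdrawal against control (limma-voom, n = 6 per group) for every tested gene of 10 lists of the MAP kinase routes; filled points have q under 0.1 and blue bars mark list medians. The medians are 0.31 for the 9 members, 0.37 for the early genes and 0.0079 for the Ras-ERK core.

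Early genes induced through ERK or CREB were highest in single rats. Of 19, Myc alone was called in withdrawal against control (0.50, SE 0.13, q = 0.0547 by limma-voom), and none between ethanol and control by limma-voom or edgeR (9 with an unadjusted p under 0.05, and 2 called by DESeq2), with list medians of 0.37 and 0.46. The highest level of the 18 rats was in ethanol rat 5 for 10 of the 19 and in withdrawal rat 1 for the other 9. Their summed level was 1153 CPM in ethanol rat 5, 1399 CPM in withdrawal rat 1 and 409 to 761 CPM in the other 16 rats. Ethanol rat 1, with Dusp1 at 79.3 CPM, had 427 CPM. Of 8 glucocorticoid-induced genes, Cdkn1a rose in withdrawal (0.57, SE 0.17, q = 0.086 by limma-voom), and none was called in ethanol by the 3 tools (0 with an unadjusted p under 0.05).

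**Figure D5:**
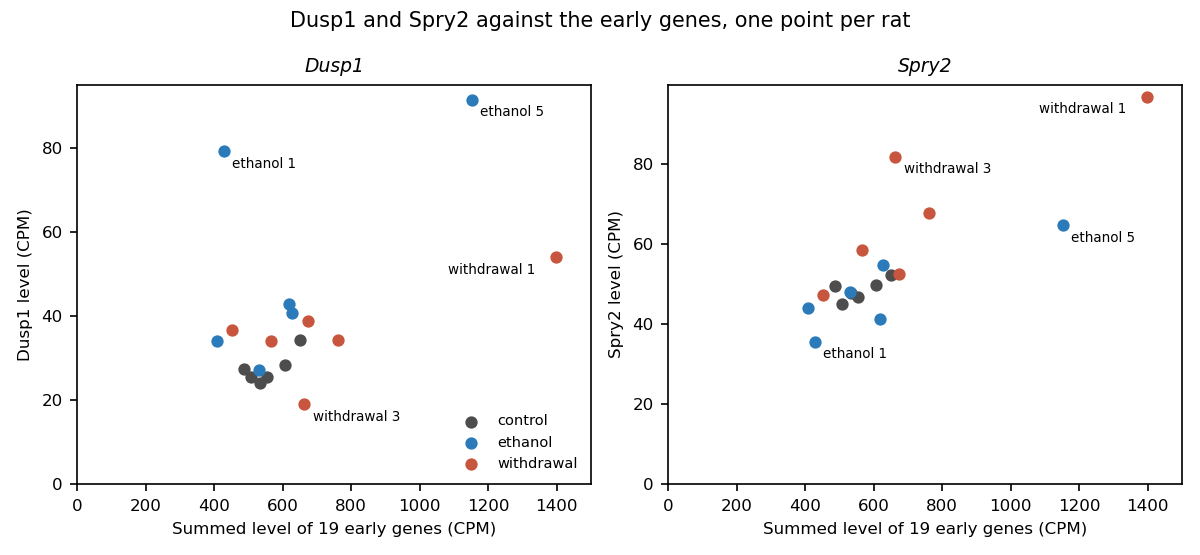
Level of Dusp1 (left) and Spry2 (right) against the summed level of 19 early genes, all in CPM, with one point per rat in 3 groups. Ethanol rat 5 (1153 CPM) and withdrawal rat 1 (1399 CPM) lie far right, whereas ethanol rat 1 has high Dusp1 (79.3 CPM) at 427 CPM of early genes.

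Markers of several cell types also differed in withdrawal against control beside the Spry and Spred genes. Endothelial and mural markers had 3 of 6 called higher (Pecam1, Flt1 and Pdgfrb), with sums of 294 to 420 CPM in withdrawal and 269 to 331 CPM in control rats. Astrocyte markers had 2 of 7 higher (Gfap and Sox9) and 2 lower (Aldh1l1 and Gja1), with sums of 2407 to 3987 against 2895 to 3265 CPM. Oligodendrocyte precursor markers had 2 of 5 higher (Olig2 and Pdgfra) and 1 lower (Gpr17), and neuron markers had Prox1 lower and none higher of 9. No marker of microglia (of 6), oligodendrocytes (of 6), choroid plexus (of 5) or thalamus (of 6) was called in this comparison by limma-voom, edgeR or DESeq2, with 0, 2, 1 and 0 at an unadjusted p under 0.05. The part of these cell types in the levels of the feedback genes was not tested.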

How the data were processed

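RNA-Seq read counts per gene, as deposited by the authors for each rat, were used unchanged. According to the labels and the study's methods, total RNA with an integrity number above 8 was made into stranded libraries, FastQC 0.11.4, STAR 2.5.2a and featureCounts 1.5.0 were run, and genes were counted on Rnor_6.0. Groups came from the labels, which give each sample its own animal. No sample column was left unassigned.

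A gene was tested if any 1 of the rats exceeded 0.5 CPM, TMM factors were computed on the tested genes with edgeR 4.0.16, and all 3 groups were fitted with limma-voom (limma 3.58.1, R 4.3.3) and 3 surrogate variables (sva 3.50.0). P-values were adjusted by the Benjamini-Hochberg method over all 17853 genes. Exact permutation tests enumerated all 924 splits of log2 CPM (prior count 2), and pairs of members were tested with 100000 permutations within groups (numpy 2.4.6, scipy 1.17.1). Alternatives changed the surrogate variables, tool (edgeR, DESeq2 1.42.0), scaling, filter, groups, weights and rats. The fit was tested on simulated counts with 200 genes changed 2-fold, more than any member, of which 182 were recovered with 22 false calls. These counts held no hidden structure among rats, so the test does not cover the surrogate variables. Totals were 30873228 to 42679748 assigned reads. For members with low counts, such as Dusp14 (189 to 246 counts in control rats), counting noise is part of the spread among rats. No 2 rats of a group agreed within counting noise (lowest chi-square per degree of freedom 5.74 over 45 pairs).

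All 9 members are named. Of the other lists, at most the 4 called genes with the smallest q are named per comparison, and for each member the 3 genes with the highest Pearson r over 18 rats. The members and lists were chosen with earlier results of these data known. Levels of single rats and summed markers were described after their values were seen. For the Ras-ERK core list, 1 gene is not reported here.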

Additional observations from a re-analysis of the deposited data

Results flagged for a closer look

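In each group of 6 rats, the gap between the highest or lowest level and its nearest neighbour was divided by the range and compared with Dixon's critical value (95%) for 6 values. Of 27 groups of member levels 2 exceeded it, and chance flags about 1 in 20 groups. Dusp4 was at 18.4 CPM in ethanol rat 5 with the next ethanol rat at 9.19 CPM, a gap of 0.783 of the range. Dusp14 was at 13.9 CPM in withdrawal rat 1 with the next withdrawal rat at 7.34 CPM, a gap of 0.686 of the range. These are the same 2 rats in which the early genes were highest, and the part of that in either value was not tested.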

How the results depend on the processing

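The number of feedback genes called in withdrawal against control was 3, with 2 at q under 0.05. It was 0 without surrogate variables, with 2 of them, with edgeR without them, with the replicate block and no surrogate variables, and without withdrawal rats 1 and 5 (with or without surrogate variables). It was 4 with 4 surrogate variables, with quality weights and with TMM before the filter only, and 5 with DESeq2, with only the 2 groups compared, with the replicate block and 3 surrogate variables, and without ethanol rats 1 and 5. For withdrawal against ethanol (1 called) it was 0 at q under 0.05, with 2 surrogate variables, with no filter, with the filter in at least 6 rats, with only the 2 groups compared, with the replicate block (with or without surrogate variables), within the shared index set and without withdrawal rats 1 and 5, 2 without surrogate variables (limma-voom or edgeR) and with quality weights, and 5 without ethanol rats 1 and 5. The F test called 2, but 0 at q under 0.05, without surrogate variables (limma-voom or edgeR) and with 2 of them, and 3 with 4. With 1 rat left out, calls ran from 0 to 5, from 0 to 4 and, for ethanol against control, from 0 to 0. Over all genes, 965, 88 and 486 were called in withdrawal against control, ethanol against control and withdrawal against ethanol, and 41, 50 and 621 without surrogate variables. With 1 rat left out these totals ran from 23 to 1911, from 0 to 258 and from 0 to 1800, so the shares of all genes printed beside the members move as far. Counts of 0 members came with 0 genes called in all in withdrawal against control with the replicate block and no surrogate variables and without withdrawal rats 1 and 5 and no surrogate variables, in withdrawal against ethanol with only the 2 groups, within the shared index set and without ethanol rat 2, ethanol rat 3 or withdrawal rat 6, and in ethanol against control with the replicate block and no surrogate variables and without control rat 4. With the replicate block and 3 surrogate variables 1 gene was called in withdrawal against ethanol. Such counts say nothing about the members. The cause was not tested.

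Members with an exact permutation p under 0.05 numbered 4 to 7 in withdrawal against control, 1 to 4 in ethanol against control and 3 to 5 in withdrawal against ethanol with 1 rat left out. The highest values came without withdrawal rat 5 in the first and without ethanol rat 5 in the second, where the model called no member.

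No member called in a comparison changed direction. Changes of sign were in uncalled values, most of them near 0, but also in Dusp1 in withdrawal against ethanol (-0.39 with all rats) and against control (0.31) and in Dusp5 in withdrawal against ethanol (0.17). For Dusp6 in withdrawal against control, log2 fold changes were -0.124 without surrogate variables, -0.0101 with 2 and -0.0137 with 4, -0.0663 with edgeR without them, -0.00183 with RLE scaling, -0.0312 with library totals, -0.0217 with the filter in 6 rats, -0.0137 with only the 2 groups, -0.0102 and -0.125 with the replicate block (with and without surrogate variables), -0.0241 with weights and -0.00833 without withdrawal rats 1 and 5, when Dusp1 was at -0.0784. In ethanol against control, Dusp4 was at -0.151 without surrogate variables, -0.0718 with edgeR, -0.142 with the replicate block and -0.147 without withdrawal rats 1 and 5 (none of these with surrogate variables), and -0.174 without ethanol rats 1 and 5. Dusp14 was at -0.0375 with only the 2 groups, -0.0252 with weights, -0.00296 without withdrawal rats 1 and 5 and -0.0323 without ethanol rats 1 and 5. Spry2 was at -0.0414 without surrogate variables, -0.0152 with edgeR, -0.0385 with the replicate block and -0.0373 without withdrawal rats 1 and 5 (again none with surrogate variables), Spry4 at 0.000427 with edgeR and 3 surrogate variables, and Spred2 at 0.00175 with no filter, 0.0278 with only the 2 groups and 0.0137 with the replicate block and 3 surrogate variables. Dusp5 in withdrawal against ethanol was at -0.0119 without withdrawal rats 1 and 5.

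With 1 rat left out, signs changed in Dusp6 in withdrawal against control (-0.0602 to 0.0628), in Dusp4 (-0.148 to 0.222), Dusp14 (-0.0343 to 0.153), Spry4 (-0.177 to 0.0745) and Spred2 (-0.103 to 0.0539) in ethanol against control, and in Dusp1 (-0.654 to 0.0142) and Dusp5 (-0.0212 to 0.399) in withdrawal against ethanol. In the permutation tests the difference of mean log2 levels changed sign in Dusp6 in withdrawal against control (-0.224 to 0.094), in Dusp5 (-0.18 to 0.127), Spry2 (-0.132 to 0.0403), Spry4 (-0.152 to 0.00812) and Spred1 (-0.0236 to 0.0659) in ethanol against control, and in Dusp14 in withdrawal against ethanol (-0.0436 to 0.288). Rats with the same replicate number shared only a number (18 pairs, r -0.325 to 0.383, 4 over 0.1, and 5 of 18 rats closest to one of their own number), so the block was not used in the main model.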
